A study of Rattus norvegicus with 22 samples.

Results

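Myofibroblasts are the stromal cells that combine features of fibroblasts and of smooth muscle. In the kidney they and their relatives, the pericytes and vascular smooth muscle cells, lie around vessels and in the interstitium. Genes used as markers across this family of cells include those of smooth muscle actin (Acta2) and smooth muscle myosin heavy chain (Myh11), which serve contraction. Another is that of PDGF receptor β (Pdgfrb), a receptor for growth signals. Not every member of the family carries all of them. In an injured kidney myofibroblasts are known as makers of collagen and other matrix, the material of fibrosis, together with interstitial fibroblasts. Mineralocorticoid excess with a high salt intake raises blood pressure and injures the kidney, and the study used single-nucleus RNA-Seq to follow the cell types of the rat kidney under this injury and under drugs that counter it.

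The nuclei described are those that the authors annotated as MyoFib. They number 2879 of the 310282 nuclei in the annotation, or 0.928% (exact 95% CI 0.894% to 0.962%), which makes MyoFib the 14th of 16 annotated cell types by size. Together with the 7724 nuclei annotated as Fibroblast they form the stromal nuclei, 10603 in all, of which MyoFib nuclei were 27.2% (26.3% to 28.0%). The nuclei came from 22 libraries of whole kidney tissue under 5 treatments. In single-nucleus RNA-Seq each nucleus is captured in a droplet and its transcripts are tagged with a barcode. The files read here give for each nucleus its library, treatment and cell type and its 2 UMAP coordinates, a map in which nuclei with like transcripts lie close together. Values of Acta2, Pdgfrb, Myh11 and other genes and the depth of each nucleus were not analysed here. The name MyoFib was therefore not checked against marker genes, among them Synpo2, which the study gives for myofibroblasts. Pericytes or vascular smooth muscle cells within MyoFib could not be told apart.

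All rats were male Sprague-Dawley rats, and the kidneys are labelled as adult. Control rats had a sham operation in which both kidneys were kept, with oil injections and tap water. By the labels, the rats of the other groups had 1 kidney removed, received deoxycorticosterone acetate (DOCA), a mineralocorticoid, at 50 mg/kg under the skin each week, and drank salt water. A sentence of the study's methods on the nephrectomy leaves out the amiloride group, which the labels include. The DOCA group was gavaged daily with vehicle. The DOCA + Finerenone group received 10 mg/kg/d finerenone, the DOCA + Spironolactone group 50 mg/kg/d spironolactone and the DOCA + Amiloride group 20 mg/kg/d amiloride. Finerenone and spironolactone block the mineralocorticoid receptor, the former as a nonsteroidal and the latter as a steroidal compound, and amiloride blocks the epithelial sodium channel. Every contrast with Control therefore includes the loss of a kidney, the salt and DOCA together. The labels list 5 samples each for Control, DOCA, DOCA + Finerenone and DOCA + Spironolactone and 2 for DOCA + Amiloride, all at 6 weeks except 1 sample each of DOCA, DOCA + Finerenone and DOCA + Spironolactone at 3 weeks.

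The annotation has the same number of libraries in each treatment, but under codes such as RK8.2 that match no sample title. No library was therefore assigned to a sample, a rat or a time point, and libraries are not used as replicates. There are 16 codes in the 22 names. Of these, 5 recur, in 11 names in all, and 4 of the 5 recur under more than 1 treatment, so that RK7.1 is a DOCA library and RK7.1.New a DOCA + Finerenone library. The names fall into 3 sets. In 11 names there is no tag. In 5 names, 1 per treatment, there is Old or New followed by MO, and these are called MO-marked below. In 6 names there is Old or New alone, and these are called tag-only. The sources used here do not explain the tags. The study's methods list the Multiome kit, which reads RNA and open chromatin of the same nucleus, for as many samples as there are MO-marked names, whereas the labels list it for more. The submitters' notes name Cell Ranger 3.0.2 for 11 samples and version 6.0.1 with the Multiome kit for the other 11, and in each treatment the first number equals that of the untagged libraries, which by itself assigns no library. Tag-only libraries occurred in every treatment, 2 under finerenone and 1 in each of the others. They stood apart in many of the measurements below, so the shares of each treatment and the main positions on the map are given with and without them.

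The libraries held between 759 and 48403 nuclei, and the 2 largest were tag-only libraries under finerenone. Barcodes present in more than 1 library were counted as a check for shared cells. Across 231 pairs of libraries there were 10166 such matches, and 1525 of them (15%) joined nuclei of the same type, against 15.5% expected from the composition of the libraries. Of the MyoFib nuclei, 188 (6.53%) had a barcode that occurred elsewhere, against 6.37% of all nuclei, and only 2 matches joined MyoFib nuclei. Pairs of MO-marked libraries shared 2.01% to 3.12% of the barcodes of the smaller library. An MO-marked library and one without the mark shared at most 0.0197%, with 20 matches over 85 pairs, so barcodes were hardly shared between the kinds. Pairs without the mark shared up to 2.10% (median 0.465%).

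The first question was what share of the kidney's nuclei were myofibroblasts under each treatment. In pooled nuclei the share was lowest in the Control group and highest under finerenone. There were 232 MyoFib nuclei among 46857 in the Control group, or 0.495% (95% CI 0.434% to 0.563%), and 381 among 47264 in the DOCA group, or 0.806% (0.727% to 0.891%). Under finerenone there were 1397 among 118238, or 1.18% (1.12% to 1.24%). Under spironolactone there were 739 among 76607, or 0.965% (0.897% to 1.04%), and under amiloride 130 among 21316, or 0.610% (0.510% to 0.724%). These exact intervals cover counting error only. Over the 22 libraries, the counts of MyoFib nuclei scattered 106 times as much around the pooled share as counting error alone would give (ratio of variances). This ratio also includes differences between treatments. Within each treatment except amiloride, single libraries lay outside the pooled interval on both sides. The amiloride libraries, at 0.574% and 0.649%, lay within theirs.

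Library by library, the order of the treatments was not the same. In the Control group the untagged libraries had 0.739% (RK11.3), 0.485% (RK12.2) and 0.471% (RK12.3), the MO-marked library RK12.2.Old.MO had 0.665% and the tag-only library RK10.3.Old had 0.285%. In the DOCA group the untagged libraries had 0.506% (RK8.2), 0.451% (RK7.1) and 0.161% (RK7.2), RK9.1.Old.MO had 0.455% and the tag-only RK2.2.New had 1.86%. A single DOCA library was thus above all Control libraries and the other 4 were below the highest of them. Under finerenone RK2.1 had 0.427%, RK3.1 0.257%, RK2.2.Old.MO 0.987%, and the tag-only libraries RK7.1.New and RK8.2.New had 2.59% and 0.347%. Under spironolactone RK4.2 had 0.297%, RK4.1 0.264%, RK6.1 0.198%, RK5.1.Old.MO 0.470% and the tag-only RK6.1.New 1.74%. Under amiloride the MO-marked RK12.2.New.MO had 0.649% and the tag-only RK11.2.New 0.574%. In the DOCA, finerenone and spironolactone groups the library with the highest share was a tag-only one, whereas in the Control and amiloride groups the tag-only library had the lowest share.

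**Figure D1:**
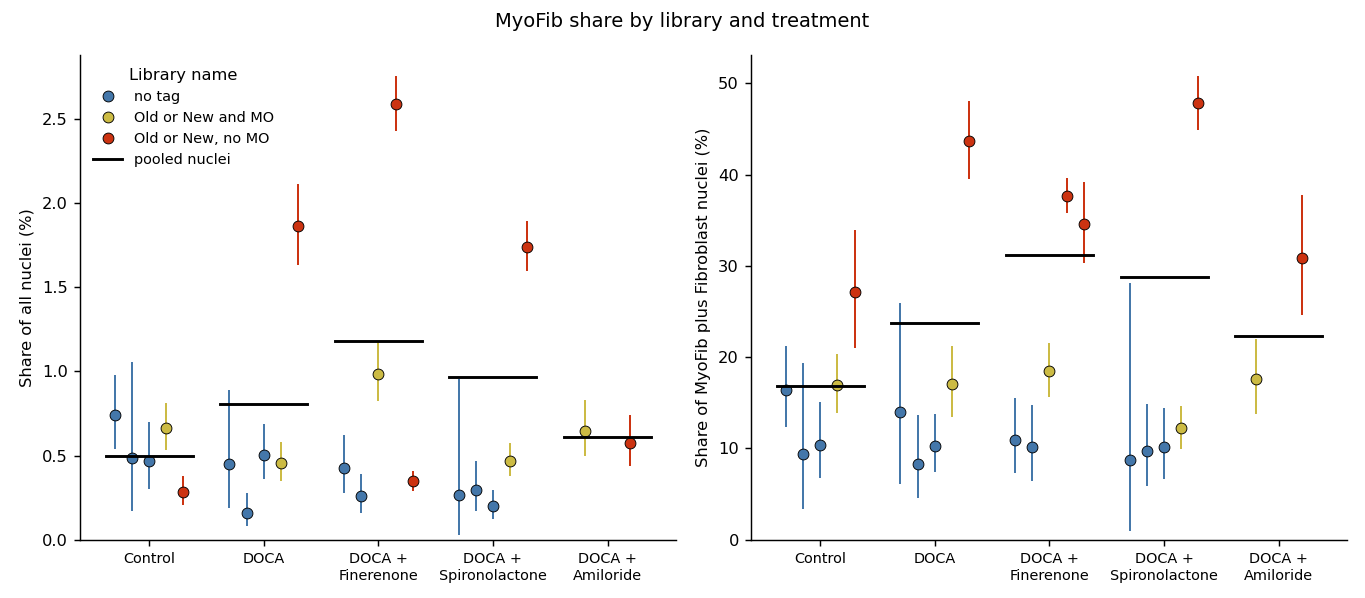
Share of MyoFib nuclei in each of the 22 libraries, in percent of all nuclei (left) and of MyoFib plus Fibroblast nuclei (right), by treatment. Points are libraries, coloured by the tags in their names, vertical lines are exact 95% intervals of counting error and black bars are the shares of the pooled nuclei. The 3 libraries above 1% of all nuclei, at 1.74%, 1.86% and 2.59%, are tag-only libraries, and on the right the 6 tag-only libraries lie between 27.1% and 47.8%, above the other 16, which lie between 8.33% and 18.5%.

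The difference between DOCA and Control in pooled nuclei was 0.31 percentage points (95% interval of counting error 0.21 to 0.42), with libraries of the groups overlapping at 0.161% to 1.86% and 0.285% to 0.739%. The median library had 0.455% in the DOCA group and 0.485% in the Control group, so the medians were in the opposite order. Without RK2.2.New, the DOCA share was 0.392% and the difference was −0.10 percentage points. Without the tag-only libraries of both groups, the shares were 0.637% in Control and 0.392% in DOCA, a difference of −0.25. No test was made, as no library was matched to a sample.

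Finerenone and spironolactone are both receptor blockers, given at different doses, and their shares are set beside DOCA without a comparison between them. The pooled share under finerenone was 0.38 percentage points above that of DOCA (0.27 to 0.48) and that under spironolactone 0.16 above it (0.05 to 0.27). The medians over libraries were 0.427% under finerenone and 0.297% under spironolactone, both below the 0.455% of DOCA. Leaving out RK7.1.New turned the finerenone difference to −0.35 percentage points, and leaving out RK6.1.New turned the spironolactone difference to −0.45. With the tag-only libraries of all groups left out, finerenone stood at 0.632% and spironolactone at 0.354%, against 0.392% in DOCA. For amiloride the pooled difference from DOCA was −0.20 percentage points (−0.33 to −0.06), and both amiloride libraries lay above 4 of the 5 DOCA libraries. Without RK2.2.New the difference was 0.22 in the other direction.

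In the DOCA, finerenone and spironolactone groups single libraries carried most of the pooled counts. RK7.1.New alone supplied 1042 MyoFib nuclei, 36.2% of all those in the annotation and 74.6% of those under finerenone, while it held 34.1% of the finerenone nuclei. RK6.1.New supplied 587, or 79.4% of those under spironolactone from 44.0% of the nuclei, and RK2.2.New 248, or 65.1% of those in the DOCA group from 28.2% of the nuclei. These 3 libraries held 65.2% of all MyoFib nuclei and 28.1% of all nuclei. In the Control group the library with the most, RK12.2.Old.MO, held 42.2% of the MyoFib nuclei and 31.5% of the nuclei, and in the amiloride group RK12.2.New.MO held 50.8% and 47.7%. Without the top library of each treatment the pooled shares were 0.417% (Control), 0.392% (DOCA), 0.455% (finerenone), 0.354% (spironolactone) and 0.574% (amiloride).

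The number of libraries that the counts effectively rest on can be given as the square of the sum of the counts divided by the sum of their squares, which equals the number of libraries if all contribute alike. For MyoFib nuclei this was 5.24 of the 22 libraries, against 11.0 for Fibroblast nuclei and 12.7 for all nuclei. Without the tag-only libraries it was 9.27 of 16 for MyoFib, 10.9 for Fibroblast and 11.6 for all nuclei. By treatment it was 3.45 in Control, 2.13 in DOCA, 1.72 under finerenone and 1.53 under spironolactone, each of 5 libraries, and 2.00 of 2 under amiloride. Of the 16 cell types, only PST cells (3.63) and podocytes (3.86) rested on fewer libraries than MyoFib. The 6 tag-only libraries together held 2163 MyoFib nuclei, 75.1% of all, beside 53.4% of all nuclei and 42.5% of the Fibroblast nuclei.

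**Figure D2:**
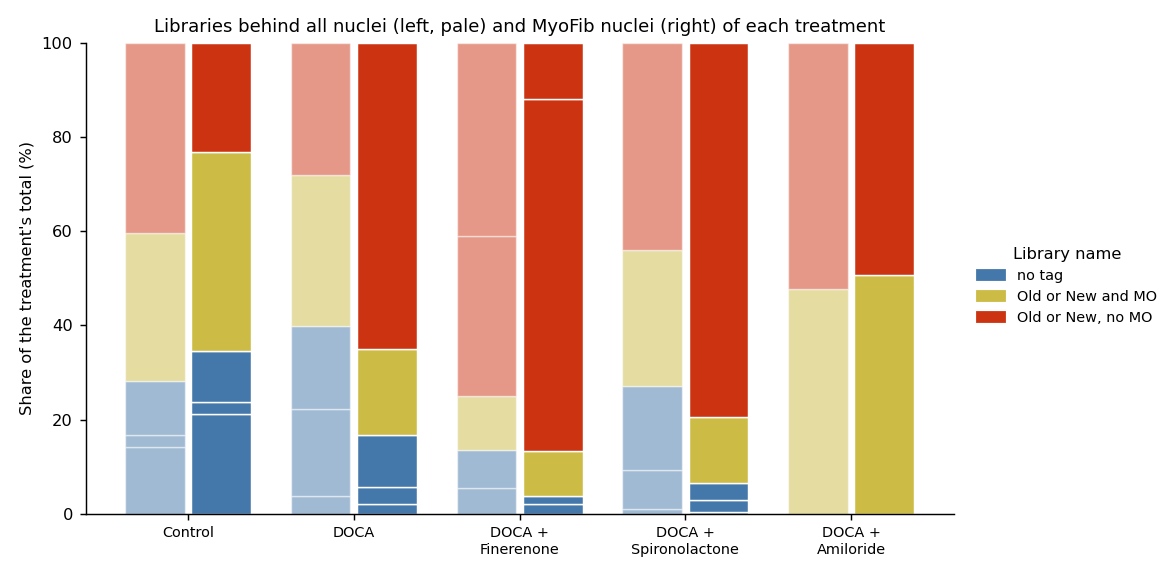
Contribution of each library to all nuclei (left bar of a pair, pale) and to the MyoFib nuclei (right bar) of its treatment, in percent, with libraries separated by white lines and coloured by the tags in their names. Tag-only libraries held 28.2% of the DOCA nuclei and 65.1% of the DOCA MyoFib nuclei, 75.0% and 86.6% under finerenone and 44.0% and 79.4% under spironolactone, but 40.4% and 23.3% in the Control group.

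Tag-only libraries also differed from the others in other cell types. Their median MyoFib share was 1.16%, against 0.462% in the other 16 libraries, a ratio of 2.51, with overlapping ranges of 0.285% to 2.59% and 0.161% to 0.987%. Among the 16 types only podocytes, the filter cells of the glomerulus, had a higher ratio (2.68). The ratio was 0.506 for Fibroblast nuclei, 0.538 for endothelial nuclei and 0.298 for macrophages. The medians of MyoFib and Fibroblast nuclei, both stromal, therefore differed in opposite directions between the sets, but not in the same libraries. RK7.1.New, RK2.2.New and RK6.1.New, with the highest MyoFib shares, had 4.27%, 2.40% and 1.90% Fibroblast nuclei. These lay within the 1.76% to 4.68% of the other 16 libraries. RK11.2.New, RK10.3.Old and RK8.2.New had less, 1.28%, 0.766% and 0.655%, and their MyoFib shares of 0.574%, 0.285% and 0.347% lay within the range of the others. Whether the preparation of the libraries, the region of kidney sampled or the rats contributed was not tested. Time could not be told apart from the library sets either. The labels list 1 sample at 3 weeks each for DOCA, DOCA + Finerenone and DOCA + Spironolactone, and these were matched to no library. The same treatments are those of RK2.2.New, RK7.1.New and RK6.1.New, in that order. Whether time contributed to the shares of these libraries was not tested.

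The second question was how the stromal nuclei divided between MyoFib and Fibroblast. In pooled nuclei MyoFib made up 16.8% of stromal nuclei in Control (95% CI 14.9% to 18.9%), 23.8% in DOCA (21.7% to 25.9%), 31.2% under finerenone (29.9% to 32.6%), 28.8% under spironolactone (27.1% to 30.6%) and 22.3% under amiloride (19.0% to 25.9%). Without the tag-only libraries these shares were 15.1% in Control, 12.8% in DOCA, 15.3% under finerenone, 11.4% under spironolactone and 17.6% under amiloride. In the stromal share the sets of libraries separated fully. All 6 tag-only libraries, at 27.1% to 47.8%, lay above all 16 others, at 8.33% to 18.5%, in whichever treatment. This split was noticed in these values and was not tested.

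Among the 11 untagged libraries the stromal share varied little more than counting error gives, with a ratio of variances of 1.21, against 47.9 over all 22 libraries. The untagged libraries had 16.4% (RK11.3), 10.4% (RK12.3) and 9.38% (RK12.2) in Control and 14.0% (RK7.1), 10.3% (RK8.2) and 8.33% (RK7.2) in DOCA. Under finerenone they had 10.9% (RK2.1) and 10.1% (RK3.1), and under spironolactone 10.1% (RK6.1), 9.74% (RK4.2) and 8.70% (RK4.1). The treatments overlapped in this set, except that the highest spironolactone library, at 10.1%, lay just below the lowest finerenone library. The smallest of these values rest on few nuclei, down to the 2 MyoFib nuclei of RK4.1, whose exact 95% interval ran from 1.07% to 28.0%.

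The 5 MO-marked libraries, 1 per treatment, had 17.0% in Control (14.0% to 20.3%), 17.1% in DOCA (13.5% to 21.1%), 18.5% under finerenone (15.7% to 21.5%) and 17.6% under amiloride (13.9% to 21.8%). Spironolactone, at 12.2% (10.1% to 14.6%), was the lowest. The tag-only libraries ran from 27.1% in Control (21.1% to 33.9%) through 30.9% under amiloride (24.7% to 37.7%), 34.6% and 37.7% under finerenone and 43.7% in DOCA (39.6% to 47.9%) to 47.8% under spironolactone (45.0% to 50.7%). Spironolactone was thus the lowest treatment in one set and the highest in the other, and with 1 library per treatment, apart from the pair of tag-only finerenone libraries, these orders have no replicate check. The pooled DOCA minus Control difference of 6.94 percentage points (4.01 to 9.84) became −2.25 without the tag-only libraries. The spironolactone minus DOCA difference of 5.06 (2.28 to 7.79) became −1.47 without them, and the finerenone minus DOCA difference of 7.49 (4.93 to 9.97) became 2.45. The amiloride minus DOCA difference was −1.42 (−5.38 to 2.74), an interval that includes 0, and became 4.77.

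Shares of all nuclei also move with the number of tubule nuclei in a library, so 2 further denominators were used. Of nuclei outside the proximal tubule types (PCT, PST and iPT), MyoFib were 0.989% in Control, 1.63% in DOCA, 3.59% under finerenone, 1.73% under spironolactone and 1.39% under amiloride. Without the tag-only libraries these shares were 1.27%, 0.794%, 1.34%, 0.819% and 1.45%, so that DOCA was below Control and amiloride above DOCA. This combination was added after the data were seen. The tag-only RK8.2.New, which had a low 0.347% of all nuclei, had 2.43% of these nuclei, more than any of the 16 libraries that are not tag-only, whose highest value was 1.84%. Against 100 endothelial nuclei, the other reference for tissue around vessels, there were 1.74 to 7.42 MyoFib nuclei in the 16 libraries that are not tag-only. In the tag-only libraries there were 3.81 (RK10.3.Old), 9.83 (RK11.2.New), 17.2 (RK8.2.New), 22.4 (RK2.2.New), 35.4 (RK6.1.New) and 56.0 (RK7.1.New). Only the Control library of this set lay within the range of the others.

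The third question was where the MyoFib nuclei lie on the deposited UMAP, whose coordinates have no unit and were computed after batch correction with Harmony. MyoFib nuclei formed 1 compact island at the edge of the map, centred at −13.4 and −1.50 (medians), beside the Fibroblast nuclei at −12.5 and −4.52. Joining MyoFib nuclei that lie within 0.5 of each other placed 2874 of the 2879 (99.8%) in this island. Of the 30 nearest neighbors of a MyoFib nucleus, 99.1% were MyoFib on average, where the numbers of nuclei alone would give 0.928%, and 0.581% were Fibroblast. These averages follow the tag-only libraries, in whose nuclei 99.9% of the neighbors were MyoFib and 0.0678% Fibroblast. In the nuclei of the other 16 libraries the values were 96.5% and 2.13%, and with equal weight per library the Fibroblast share was 1.57%. By library it ran from 0% in RK4.1 to 5.61% in RK5.1.Old.MO. For 2686 MyoFib nuclei (93.3%) all 30 neighbors were MyoFib, and among nuclei outside the tag-only libraries this held for 76.8%. Of the other 15 types, 13 had a lower share of neighbors of their own type, in a range over all types of 93.7% to 99.9%. Clusters were named by the authors from the same transcripts that set the map, so this describes the annotation and is no independent check of it.

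The 5 MyoFib nuclei outside the island, described after they were seen, came from untagged or MO-marked libraries, and their neighbors were macrophages in 2 cases and PCT, LOH and iPT cells in 1 case each. Within 0.1 of the island lay 63 nuclei of other types, 55 of them Fibroblast. None of these Fibroblast nuclei came from a tag-only library, although tag-only libraries held 3285 of the 7724 Fibroblast nuclei. At its lower end the island ran into a narrow strand of nuclei toward the Fibroblast nuclei. Below −1.9 on the second coordinate lay 54 MyoFib nuclei (7.59%) of the untagged and MO-marked libraries and 5 (0.231%) of the tag-only libraries.

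**Figure D3:**
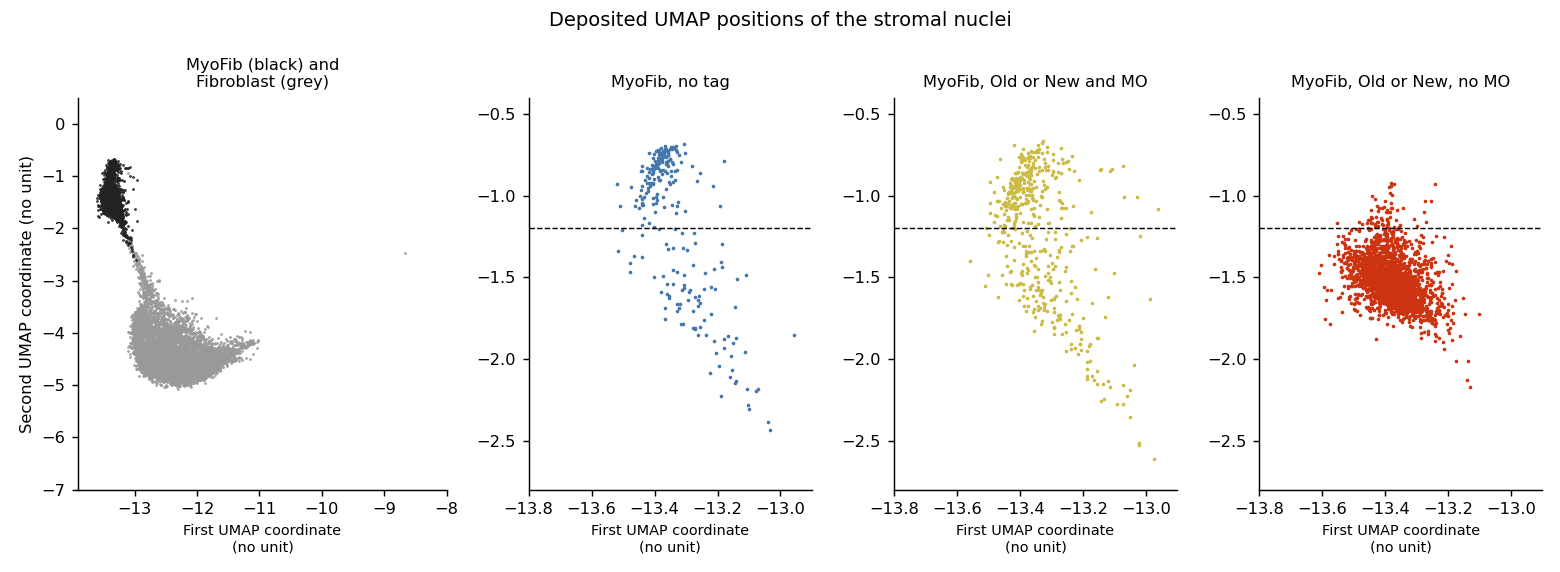
Deposited UMAP positions (no unit) of MyoFib and Fibroblast nuclei in a window around the stromal nuclei (left, nuclei outside the window not drawn), and of the MyoFib nuclei of the island by library set (other panels, on a narrower window). The dashed line marks −1.2 on the second coordinate. The untagged and MO-marked nuclei gather above the line and trail below it, while 3.10% of the tag-only nuclei lie above it.

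Within the island the library sets took different places. MyoFib nuclei of untagged libraries were most frequent between −0.8 and −0.7 on the second coordinate and those of MO-marked libraries between −1.0 and −0.9, with a lower, broader group beneath. Those of tag-only libraries peaked between −1.6 and −1.5. In bins of 0.1, the lowest bin between the upper and the lower group of the untagged and MO-marked nuclei together was that from −1.3 to −1.2. It held 33 nuclei, the bins on either side 34 and 38 and the fullest bin of the lower group 43, so the dip was shallow. For the untagged nuclei alone the lowest bin was the next one up, from −1.2 to −1.1, with 5 nuclei. The island was divided at −1.2, a line chosen from these values. Above this line lay 62.0% of the untagged MyoFib nuclei (150 of 242), 56.7% of the MO-marked ones (266 of 469) and 3.10% of the tag-only ones (67 of 2163). Above −1.0 there were 7 tag-only nuclei (0.324%), against 50.4% of the untagged and 37.3% of the MO-marked nuclei.

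The difference was present in single libraries. The 6 tag-only libraries had 2.21% (RK6.1.New), 2.59% (RK7.1.New), 2.82% (RK2.2.New), 4.17% (RK8.2.New), 9.26% (RK10.3.Old) and 12.5% (RK11.2.New) of their MyoFib nuclei in the upper part. The MO-marked libraries had 55.2% in Control, 30.4% in DOCA, 64.2% under finerenone, 51.0% under spironolactone and 80.3% under amiloride. Of the untagged libraries 10 had between 48.0% and 74.1%, and the DOCA library RK7.1 had 12.5%, which was 1 of its 8 MyoFib nuclei. Apart from that library, at the same value as RK11.2.New, the tag-only libraries lay below all others, while the untagged and MO-marked libraries overlapped. The line was chosen from these positions, so the values are a description.

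**Figure D4:**
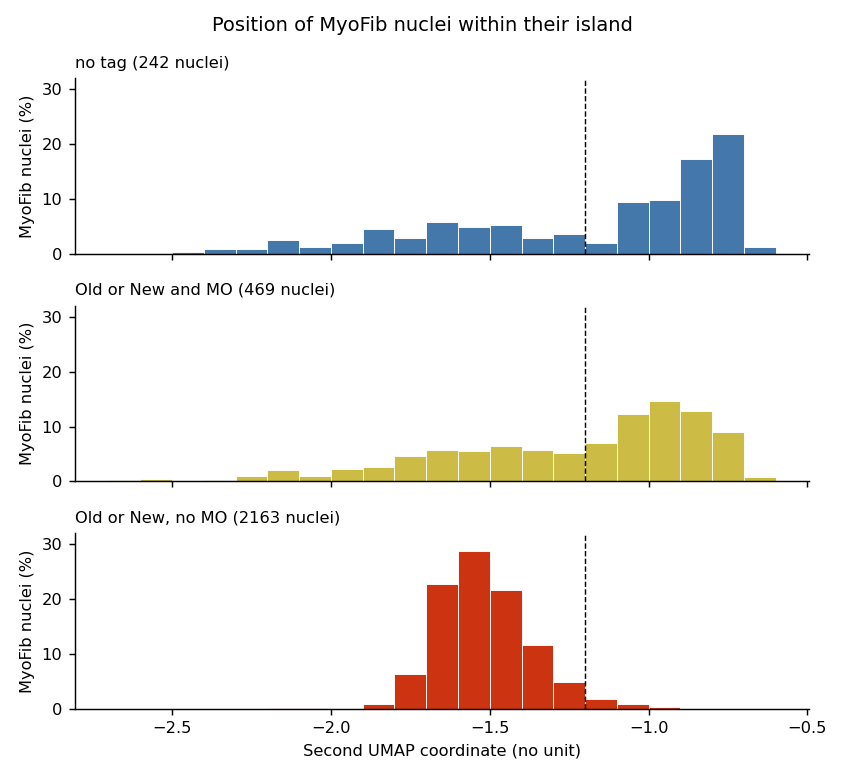
Distribution of the island's MyoFib nuclei along the second UMAP coordinate (no unit) in bins of 0.1, in percent of the nuclei of each library set. The dashed line marks −1.2. Tag-only nuclei have a single peak between −1.6 and −1.5 that holds 28.8% of them, whereas the untagged and MO-marked nuclei peak above −1.0.

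The parts were also taken as a share of all nuclei of a library. The upper part held 0.014% to 0.072% of all nuclei in tag-only libraries and 0.056% to 0.629% in the others. The lower part held 0.259% to 2.52% in tag-only libraries and 0.057% to 0.395% in the others. In RK7.1.New, RK2.2.New and RK6.1.New the lower part made up 2.52%, 1.81% and 1.70% of all nuclei, so nearly all of their high MyoFib share lay there. Of stromal nuclei, the lower part was 24.6% to 46.8% in tag-only libraries and 2.73% to 12.3% in the others, with no overlap. In the tag-only libraries RK10.3.Old (Control) and RK8.2.New (finerenone), the lower part was 0.259% and 0.333% of all nuclei, within the range of the libraries that are not tag-only.

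**Figure D5:**
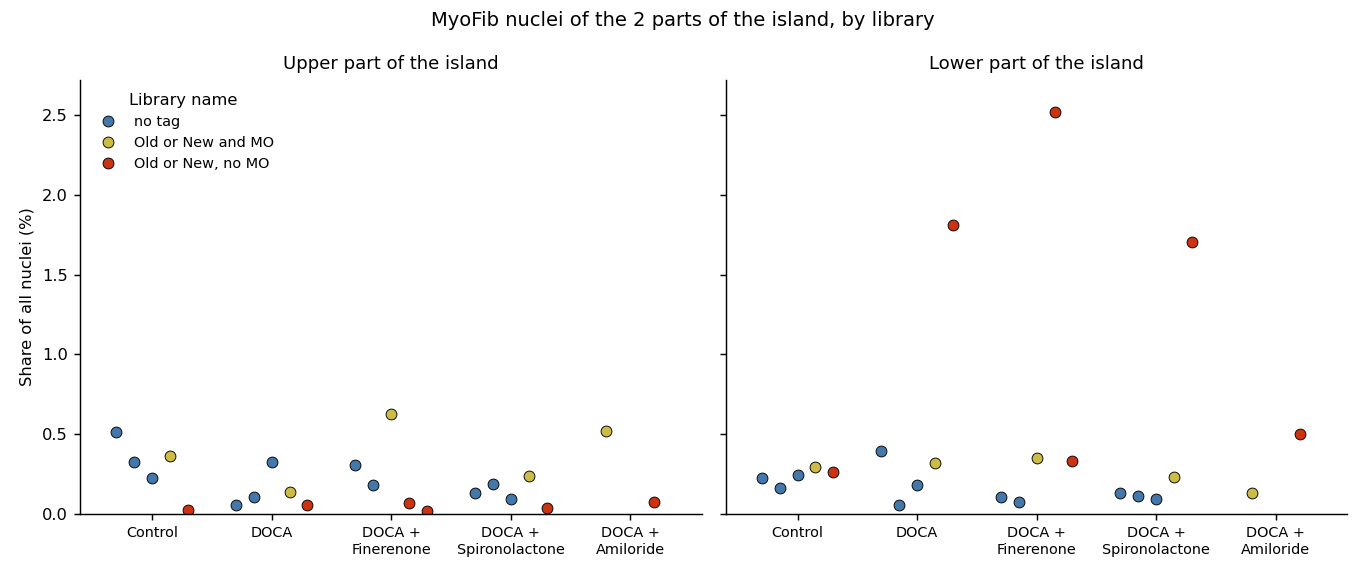
MyoFib nuclei of the upper part (left) and of the lower part (right) of the island in each library, in percent of all nuclei, by treatment and coloured by the tags in the library names. In the lower part RK7.1.New (finerenone), RK2.2.New (DOCA) and RK6.1.New (spironolactone) stand at 2.52%, 1.81% and 1.70%, and in the upper part no tag-only library exceeds 0.072%.

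How the sets mixed within the island was described from neighbors. Among the 30 nearest neighbors within the island, 31.9% of those of an untagged nucleus were untagged, where the numbers of nuclei give 8.39%, a ratio of 3.80. The ratio was 2.51 for MO-marked nuclei (40.9% against 16.3%) and 1.19 for tag-only nuclei (89.6% against 75.3%). These ratios have different upper limits, as tag-only nuclei are most of the island, and are not compared with each other. Among tag-only nuclei alone, 33.0% of the neighbors came from the same library, where the numbers give 32.6%. Among untagged nuclei alone these shares were 14.9% and 12.3%, and among MO-marked nuclei 26.9% and 21.2%. The tag-only average follows its largest libraries, RK7.1.New with 1042 and RK6.1.New with 587 of 2163 nuclei. It says little of RK10.3.Old (Control) and RK11.2.New (amiloride), with 54 and 64. Those libraries had 9.26% and 12.5% in the upper part, against 2.21% to 4.17% in the other tag-only libraries.

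Fibroblast nuclei had a similar difference in spread. The middle 50% of the Fibroblast nuclei of a tag-only library spanned 0.218 to 0.292 on the second coordinate. In the other libraries they spanned 0.288 to 1.05, and RK4.1, with the fewest nuclei, was the only one of these at or below 0.292. For MyoFib nuclei the same span was 0.169 to 0.227 in tag-only libraries and 0.180 to 0.990 in the others. The compact position is therefore shared by both stromal types in these libraries, and whether it reflects the transcripts of the nuclei, their depth or the batch correction was not tested.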

How the data were processed

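Per the study's methods and the submitters' processing notes, the authors mapped reads to rn6 with introns included, using Cell Ranger 3.0.2 or 6.0.1. SoupX was run against ambient RNA and DoubletFinder against doublets. The samples were then merged in Seurat (4.0.1 in the notes, a later release in the methods, which also name only the later Cell Ranger), nuclei were filtered on gene number and mitochondrial share, and Harmony was applied before clustering. Cluster names came from marker genes. Per nucleus, the files deposited by the authors give the names of library, treatment and cell type and UMAP coordinates, a unitless score. The annotation holds slightly more nuclei than the study states, and all were used.

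From there, MyoFib nuclei were counted per library and treatment with Python 3.11.15 and pandas 2.3.3. Shares have exact (Clopper-Pearson) 95% intervals from scipy 1.17.1 and differences a hybrid (Newcombe) interval built from them. Both cover counting error only, and nuclei of 1 library are not replicates. As no library was matched to a sample, no test, SD or replicate number is given. Neighbors were the 30 nearest nuclei on the UMAP, with 8000 nuclei drawn at a fixed seed for larger types other than MyoFib. The code was tested on simulated counts and positions. The alternatives were other weights, denominators and sets of libraries, leaving out each library, and other numbers of neighbors and link distances. The members, lists and comparisons were chosen with earlier results of these data known. The cell types set beside MyoFib were Fibroblast, endothelial, podocyte, macrophage and proximal tubule types, and the others named were chosen after their values were seen. Gene values and depth per nucleus were not analysed here.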

Additional observations from a re-analysis of the deposited data

Results flagged for a closer look

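In groups of 5 libraries, Dixon's criterion marked a library whose gap to the nearest other library took up most of the range of the group. Its usual rate of about 1 group in 20 by chance does not apply here, as libraries were not used as replicates. The criterion was applied to 12 sets of values, 3 measures in 4 treatments, and marked 5, all from tag-only libraries. The sets are not independent, as the shares of all and of stromal nuclei count the same MyoFib nuclei. The marks are a description and no test. In the DOCA group RK2.2.New had a MyoFib share of 1.86% of all nuclei, with the nearest library at 0.506%, and of 43.7% of stromal nuclei, with the nearest at 17.1%. Under spironolactone RK6.1.New had 1.74% of all nuclei, with the nearest library at 0.470%, and 47.8% of stromal nuclei, with the nearest at 12.2%. In the same library 2.21% of the MyoFib nuclei lay in the upper part of the island, with the nearest library at 50.0%. The line that bounds the upper part was chosen from these same positions, so this mark adds no support. The finerenone group has 2 tag-only libraries and none of its values was marked.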

How the results depend on the processing

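Differences are in percentage points, first as a share of all nuclei and then of stromal nuclei, in the order DOCA minus Control and then finerenone, spironolactone and amiloride minus DOCA, and only those are given that changed direction or moved by more than the counting interval. With equal weight per library the shares of all nuclei differed by 0.16, 0.23 and −0.0931 (amiloride did not move), and of stromal nuclei by 2.64, 3.68, −0.98 and 5.56. Medians over libraries gave −0.0297, −0.0284, −0.158 and 0.16, and −2.41, 4.43, −3.92 and 10.2. Without MO-marked libraries the values were 0.55, 0.23 and −0.40 (spironolactone did not move), and for stromal nuclei 11.1 with spironolactone and 4.92 with amiloride. With tagged libraries only they were 0.66, 0.20 and −0.50 (again without spironolactone), and 13.1, 1.16, 0.57 and −10.3. With untagged libraries only they were −0.27, −0.0133 and −0.11, and −3.16, 0.44 and −0.21, and there was no such library under amiloride. Without libraries over 30000 nuclei, finerenone gave −0.17 and −8.48 and spironolactone −0.45 and −12.4. Without proximal tubule types in the denominator, DOCA gave 0.645 and finerenone 1.96. With endothelial nuclei in the stromal denominator, DOCA gave 3.43 and spironolactone 1.90. These points are of other denominators, so they are not on the scale of the first values, and a changed size is not by itself a changed difference. Sets of libraries chosen after the data were seen gave, without tag-only libraries, −0.25, 0.24, −0.0376 and 0.26, and −2.25, 2.45, −1.47 and 4.77, and with MO-marked libraries only, −0.21, 0.53, 0.0146 and 0.19, and 0.12, 1.39, −4.89 and 0.52. Moving the line on the island from −1.2 to −1.1 or −1.3 gave 49.7% or 61.8% of MO-marked and 1.25% or 7.91% of tag-only nuclei in the upper part. The cause of these changes was not tested.

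Leaving out each library in turn, the shares of all nuclei differed by −0.10 (without RK2.2.New) to 0.48 (without RK9.1.Old.MO) for DOCA, by −0.35 (without RK7.1.New) to 0.95 (without RK8.2.New) for finerenone, by −0.45 (without RK6.1.New) to 0.57 (without RK2.2.New) for spironolactone and by −0.36 (without RK9.1.Old.MO) to 0.22 (without RK2.2.New) for amiloride. The shares of stromal nuclei differed by −3.99 (without RK2.2.New) to 11.5 (without RK8.2), by −2.98 (without RK7.1.New) to 18.4 (without RK2.2.New), by −12.4 (without RK6.1.New) to 16.0 (without RK2.2.New) and by −6.15 (without RK11.2.New) to 9.51 (without RK2.2.New). Other omissions that reversed a direction were RK9.1.Old.MO for spironolactone (−0.00739 of all nuclei) and RK12.2.New.MO for amiloride (7.16 of stromal nuclei). Neighbors of the same type ranged from 98.6% to 99.3%, Fibroblast neighbors from 0.393% to 0.905% (the latter without RK7.1.New) and nuclei in the island from 99.7% to 99.9%, and other numbers of neighbors and equal weights moved the neighbor shares by less than the spread between libraries, although equal weights raised the Fibroblast share to 1.57%, while other link distances left the island's share as it was. Libraries of fewer than 10 MyoFib nuclei limit any share within untagged libraries. No paired analysis was possible because the library names carry no replicate number that was matched to a sample.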
